A study of Mus musculus with 19 samples.

Results

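The serum amyloid A genes Saa1, Saa2, Saa3 and Saa4 were followed mouse by mouse in liver. They are 4 of the 51826 gene entries of the expression table and were picked by gene symbol. They were chosen by their measured levels in these same livers, so every level and difference of the 4 genes given here is a description and carries no test. Liver RNA came from 19 female Balb/c mice, age-matched and given as 12 weeks old, with no transgene or drug in any group. There were 7 nulliparous mice, which had never been pregnant, 6 mice at lactation day 10 and 6 mice at involution day 6, the sixth day of the regression that follows weaning. The authors state that caudate lobes, a small part of the liver, were frozen for RNA, while their sequencing methods name whole liver. The mice came from 2 vendors that the labels do not assign to animals. Each mouse is named by its label, NUL for nulliparous, LAC for lactation day 10 and ID6 for involution day 6, with the number of the animal. Each value is TPM, a transcript level already divided by transcript length and set to the same total in every mouse, so that levels of different genes can be set side by side.

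Serum amyloid A proteins are small apolipoproteins of high-density lipoprotein (HDL). In mice Saa1 and Saa2 are the classical acute phase genes, which hepatocytes switch on within hours when interleukin-6, interleukin-1 and tumour necrosis factor reach the liver and act through STAT3, C/EBP and NF-kB factors. Saa3 is made mainly outside the hepatocyte, by macrophages, fat cells and epithelia, and Saa4 encodes the constitutive form, which changes little in inflammation. The proteins displace apolipoprotein A-I from HDL, bind retinol and lipopolysaccharide receptors, draw in leukocytes and, when they stay high, form the fibrils of secondary amyloidosis.

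The 4 genes lie together on chromosome 7 of the GRCm38 build, within 42.3 kb. Going along the chromosome, Saa3 (ENSMUSG00000040026) occupies chr7:46711998-46715700, Saa4 (ENSMUSG00000040017) chr7:46727998-46732603 and Saa1 (ENSMUSG00000074115) chr7:46740497-46742980, all on the minus strand, and Saa2 (ENSMUSG00000057465) occupies chr7:46751790-46754313 on the plus strand. Each has 4 exons in its first annotated transcript. Saa1 and Saa2 point away from each other with starts 8.81 kb apart, and the pseudogene Saa-ps sits between Saa4 and Saa1. Saa-ps was listed at 0 in all 19 mice.

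**Figure D1:**
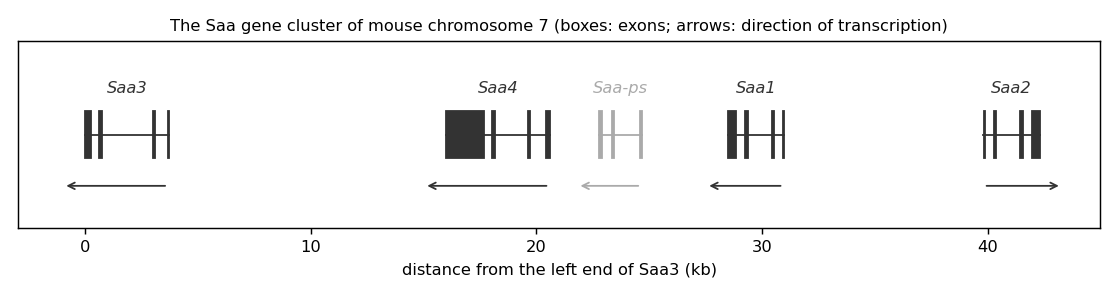
Map of the Saa cluster on chromosome 7, with the distance from the left end of Saa3 in kb along the axis, exons as boxes and the direction of transcription as arrows. Saa1 and Saa2 are transcribed away from each other, and the pseudogene Saa-ps (grey) lies between Saa4 and Saa1.

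The 250 bases before the RefSeq start of each gene (GRCm38.p6, the C57BL/6J reference and not the Balb/c genome) are shown because Saa1 and Saa2 moved together across mice while Saa3 and Saa4 did not follow them. Capitals mark matches to a C/EBP motif, TTGCNNAA on either strand. The Saa1 window is chr7:46742981-46743230 (minus strand), the Saa2 window chr7:46751583-46751832 (plus strand), the Saa3 window chr7:46715677-46715926 (minus strand) and the Saa4 window chr7:46732604-46732853 (minus strand).
Saa1: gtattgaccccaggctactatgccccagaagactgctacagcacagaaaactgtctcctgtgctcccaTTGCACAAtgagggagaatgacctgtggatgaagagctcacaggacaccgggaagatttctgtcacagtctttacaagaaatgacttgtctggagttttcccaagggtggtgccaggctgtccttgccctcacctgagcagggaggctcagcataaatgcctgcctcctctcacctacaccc
Saa2: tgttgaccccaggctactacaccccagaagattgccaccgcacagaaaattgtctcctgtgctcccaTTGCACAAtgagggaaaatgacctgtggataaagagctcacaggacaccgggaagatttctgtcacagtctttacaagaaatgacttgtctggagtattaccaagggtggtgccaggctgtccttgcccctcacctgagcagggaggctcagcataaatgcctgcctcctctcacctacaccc
Saa3: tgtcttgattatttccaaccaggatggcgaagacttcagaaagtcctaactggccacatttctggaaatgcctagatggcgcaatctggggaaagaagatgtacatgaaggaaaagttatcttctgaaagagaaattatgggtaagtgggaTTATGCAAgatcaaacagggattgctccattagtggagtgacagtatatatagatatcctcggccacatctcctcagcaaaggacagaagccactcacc
Saa4: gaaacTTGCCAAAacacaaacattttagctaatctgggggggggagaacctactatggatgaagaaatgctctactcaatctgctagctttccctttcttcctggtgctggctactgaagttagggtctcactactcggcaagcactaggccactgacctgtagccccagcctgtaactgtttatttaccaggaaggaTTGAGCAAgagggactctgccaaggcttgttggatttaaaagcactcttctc

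The Saa1 and Saa2 windows were 95.6% identical over 249 aligned bases, whereas the other 5 pairs shared between 60.6% and 64.4% of their aligned bases. The C/EBP motif was matched in all 4 windows and in 9.56% of the 32851 RefSeq promoter windows of the same length. It began 182 bases before the start of Saa1 and 183 before that of Saa2, as the same 8 bases, TTGCACAA. In Saa3 it lay from 99 to 92 bases before the start on the other strand, and Saa4 had 2 matches. The NF-kB consensus (3.90% of all windows), the STAT motif TTCNNNGAA (7.02%) and the TATA box TATAAA (12.4%), each searched on both strands, were matched in none of the 4 windows; no 2 matches overlapped. In the other annotation used for positions, GENCODE M21, 43 bases of the Saa2 window and 24 bases of the Saa3 window fall in an annotated exon. The transcripts follow the same pattern. The spliced Saa1 and Saa2 transcripts were 94.4% identical over 606 aligned bases, and the other pairs 75.3% to 76.9%. The longest run of bases that Saa1 and Saa2 share without a mismatch was 99, shorter than one 150-base read. The split of reads between these 2 near-identical genes rests on the estimate of the quantifier RSEM and is less certain than their sum.

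Saa1 was at 345.37, 36.53, 26.03, 43.63, 314.94, 31.77 and 54.23 TPM in NUL_1, NUL_4, NUL_13, NUL_220, NUL_221, NUL_226 and NUL_227. NUL_1 and NUL_221 stood far above the other 5, which lay between 26.03 and 54.23 TPM. At lactation day 10 Saa1 was at 9.13, 10.93, 9.66, 17.25, 14.53 and 14.90 TPM in LAC_36, LAC_102, LAC_133, LAC_200, LAC_213 and LAC_240, all below every nulliparous mouse. At involution day 6 it was at 252.56, 145.51, 157.47, 177.29, 100.41 and 132.21 TPM in ID6_201, ID6_209, ID6_216, ID6_218, ID6_230 and ID6_232. All 6 lay above every lactating mouse and between the low and the high nulliparous mice. The means were 122 ± 143 TPM (SD, n = 7), 12.7 ± 3.29 (n = 6) and 161 ± 51.8 (n = 6).

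Saa2 followed Saa1 closely. In the nulliparous mice, in the same order, it was at 171.72, 16.74, 9.56, 36.66, 223.86, 26.64 and 29.18 TPM. Again NUL_1 and NUL_221 were far above the rest, with NUL_221 highest here and NUL_1 highest for Saa1. The lactating mice had 5.48, 5.52, 7.91, 13.47, 10.64 and 9.42 TPM, and LAC_200 and LAC_213 reached the range of the lowest nulliparous mouse, NUL_13. The involution mice had 202.74, 101.47, 90.19, 142.30, 90.34 and 88.31 TPM. The means were 73.5 ± 86.7, 8.74 ± 3.10 and 119 ± 45.7 TPM.

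Saa3, the form made largely outside hepatocytes, was at 7.74, 7.70, 5.93, 28.55, 28.58, 25.38 and 24.69 TPM in NUL_1, NUL_4, NUL_13, NUL_220, NUL_221, NUL_226 and NUL_227. The step between mice did not fall where it fell for Saa1: NUL_1 belonged to the low 3 and NUL_221 was level with NUL_220. The lactating mice had 0.87, 2.04, 1.36, 9.85, 9.19 and 4.74 TPM. The involution mice had 115.64, 72.77, 54.81, 131.88, 64.79 and 107.79 TPM, each above all 13 other mice. The means were 18.4 ± 10.6, 4.68 ± 3.99 and 91.3 ± 31.3 TPM.

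Saa4 was the steadiest of the 4. It was at 121.43, 149.73, 134.96, 116.95, 143.79, 99.35 and 101.33 TPM in the nulliparous mice, and NUL_1 and NUL_221 were not set apart. The lactating mice had 77.45, 86.39, 87.48, 69.13, 65.66 and 75.31 TPM, all below every nulliparous mouse. The involution mice had 123.78, 102.52, 130.06, 110.35, 98.98 and 115.46 TPM, back among the nulliparous levels. The means were 124 ± 19.8, 76.9 ± 8.85 and 114 ± 12.0 TPM. Within a stage the highest mouse had at most 1.51 times the level of the lowest for Saa4, against 13.3 times for Saa1 and 23.4 times for Saa2 among nulliparous mice.

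**Figure D2:**
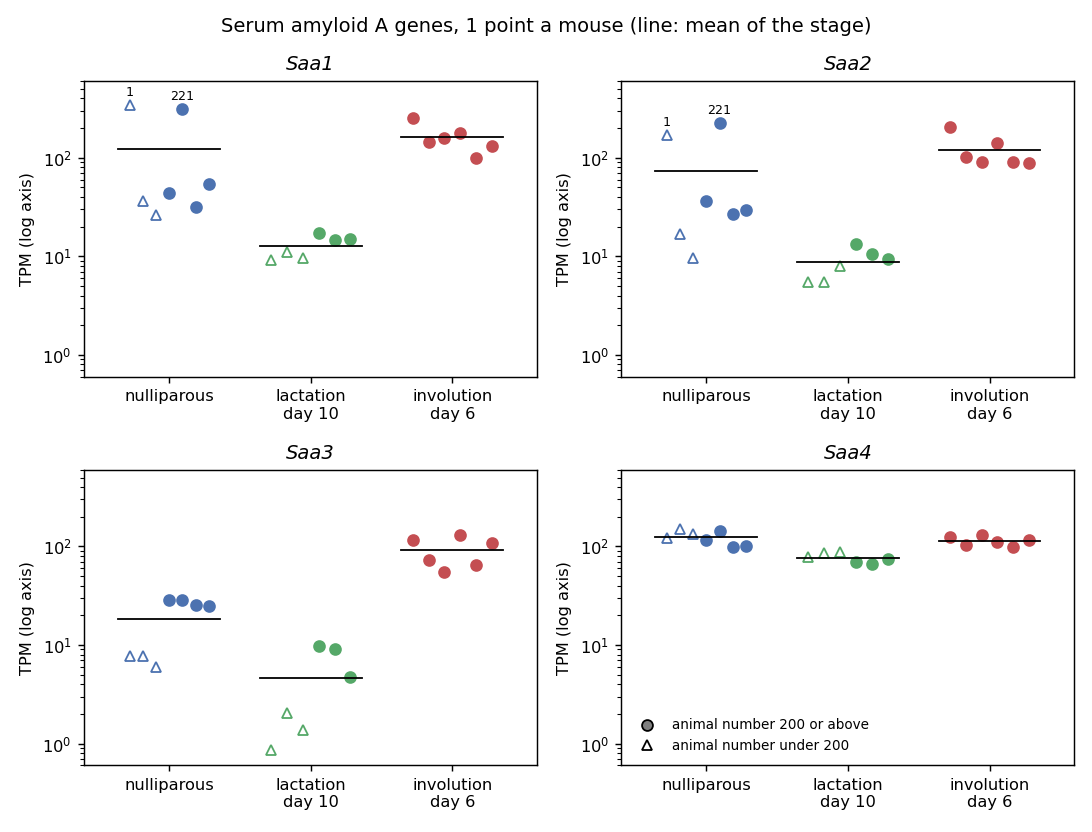
TPM of the 4 genes on a log axis, 1 point a mouse, by stage; the horizontal line is the mean of the stage, filled circles are animal numbers 200 and above and open triangles numbers under 200. NUL_1 and NUL_221 stand apart for Saa1 and Saa2 only, and the open triangles lie below the circles for Saa3 in both stages that have them.

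The lactating liver had lower levels of all 4 genes than the nulliparous liver. On the log2(TPM + 1) scale the differences were -2.40 for Saa1 (SE 0.51), -2.17 for Saa2 (0.55), -1.86 for Saa3 (0.46) and -0.67 for Saa4 (0.10). Because NUL_1 and NUL_221 raise the nulliparous mean, the medians give smaller ratios for the liver-made pair: 3.43-fold for Saa1, where the means give 9.56-fold, and 3.37-fold for Saa2. The ranges of the 2 stages were apart for Saa1 and Saa4 and overlapped for Saa2 and Saa3. Of all 16230 entries tested, 2.29% had lactating mice all below and 0.980% all above the nulliparous mice, and nothing is read from the members' 2 of 4, since these contrasts chose them. Without both NUL_1 and NUL_221, a setting added after the values were seen, the difference was -1.51 for Saa1 and -1.28 for Saa2. In bulk liver, fewer cells of a type and less RNA per cell cannot be told apart.

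At involution day 6 every one of the 4 genes was above its lactation range. The log2 differences from lactation day 10 were 3.54 for Saa1 (SE 0.53), 3.61 for Saa2 (0.57), 4.28 for Saa3 (0.47) and 0.56 for Saa4 (0.11), or 12.6-, 13.6-, 19.5- and 1.48-fold between the means. Of all entries, 9.30% were apart upward and 2.16% apart downward in this contrast. Against nulliparous mice the differences were 1.13 for Saa1 (SE 0.51), 1.45 for Saa2 (0.55), 2.42 for Saa3 (0.46) and -0.12 for Saa4 (0.10). Saa3 was the member with its involution range wholly above the nulliparous range, a pattern held by 1.84% of entries upward and 0.542% downward. For Saa4 the involution and nulliparous ranges overlapped, so these neighbours in the order of levels did not differ beyond their spread. For Saa1 and Saa2 they overlapped through NUL_1 and NUL_221, and all 6 involution mice lay above the other 5 nulliparous mice. Without both of these mice the differences from nulliparous mice were 2.02 for Saa1 and 2.34 for Saa2, and the medians over all mice were 3.47- and 3.29-fold apart. For the order of the stages, Saa1, Saa2 and Saa3 had their highest mean at involution, then nulliparous, then lactation, and Saa4 had its highest mean in nulliparous mice. The lactation samples enter the first 2 contrasts and the nulliparous samples the first and the last, so these contrasts are not independent of each other.

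The make-up of serum amyloid A message differed from mouse to mouse and from stage to stage. The 4 genes together came to 176.48 to 711.17 TPM in nulliparous mice (median 210.7), 92.93 to 109.70 in lactating mice (median 105) and 354.52 to 694.72 at involution (median 438). Saa4 made up 63.0% to 83.3% of that sum in lactating mice and 17.8% to 30.1% at involution. In nulliparous mice its share ran from 18.8% to 76.5%, with the lowest share in NUL_1. Saa3 supplied 12.7% to 24.3% at involution, 1.20% to 13.9% in nulliparous mice and 0.936% to 9.19% in lactating mice. Ranked among all entries of a mouse from the highest level down, Saa1 stood between places 499 and 1078 at involution and between 3913 and 5876 in lactation.

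The ratio of Saa2 to Saa1 stayed within narrow bounds while their sum varied widely. It was 0.367 to 0.840 in nulliparous mice (median 0.538), 0.505 to 0.819 in lactation (median 0.682) and 0.573 to 0.900 at involution (median 0.750), so Saa1 was the higher of the pair in every mouse. The ratio of Saa3 to Saa1 had no such bounds. It was 0.0224 in NUL_1 and up to 0.799 in the same stage, and 0.348 to 0.815 at involution. Over the 19 mice, Pearson's r of log2 levels was 0.983 for Saa1 with Saa2, and 0.954 once each stage's mean was taken off. For Saa1 with Saa3 it was 0.779 over all mice and 0.222 within stages, and for Saa3 with Saa4 it was 0.431 and -0.513. These are descriptions of 19 points in 3 clusters, and the values of one mouse share a library. The values within stages still carry the range of animal numbers, which was not taken off.

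**Figure D3:**
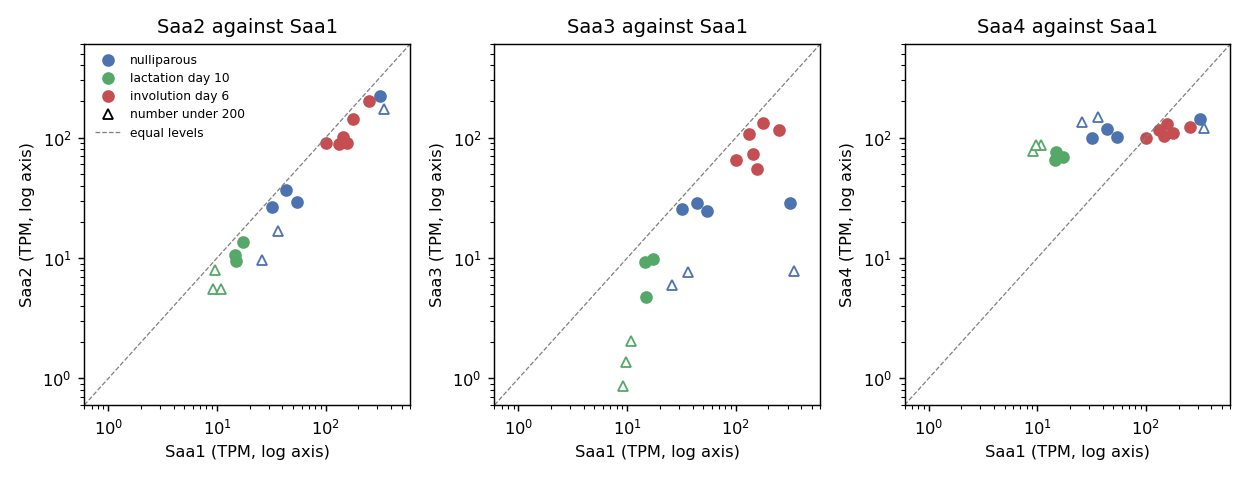
Saa2, Saa3 and Saa4 against Saa1, both axes in TPM on log scales, 1 point a mouse, coloured by stage; open triangles are animal numbers under 200 and the dashed line marks equal levels. Saa2 keeps to a band just under the line in all 3 stages, NUL_1 and NUL_221 fall far to the right of the other nulliparous points for Saa3, and Saa4 is nearly flat.

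The animals' numbers fall into 2 ranges, under 200 and 200 to 240, a split known from earlier results of these data; the labels name no batch. All 6 involution mice have numbers of 200 and above, as do 4 nulliparous and 3 lactating mice, so the comparisons with involution carry the range of animal numbers with them. Saa3 was the member that followed the numbers in both stages that hold both ranges. In nulliparous mice it averaged 26.8 ± 2.06 TPM (SD, n = 4) at numbers of 200 and above and 7.12 ± 1.03 (n = 3) below, 3.76-fold apart. In lactating mice the means were 7.93 ± 2.78 and 1.42 ± 0.588 TPM (n = 3 each), 5.57-fold apart. The ranges did not overlap in either stage, which was so upward for 8.15% of all entries, and nothing is read from the count of members.

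Saa1 and Saa2 did not follow the numbers in nulliparous mice, where 1 high mouse carries a number of each range. In lactating mice, with 3 in each range of numbers, the means were 15.6 and 9.91 TPM for Saa1 and 11.2 and 6.30 TPM for Saa2. Their ranges were apart, but the share of all entries apart in lactation alone was not computed. Nothing is read from that separation. Saa4 went the other way in lactation, 70.0 TPM at the high numbers and 83.8 at the low. Among the 13 mice numbered 200 and above, the lactation ranges lay below the nulliparous ranges for all 4 genes. The involution ranges there lay above the lactation ranges for all 4. The share of all entries apart in these smaller groups was not computed, so nothing is read from these counts. Among these 13 mice the Saa3 difference between involution and lactation was 3.35 and that from nulliparous mice 1.66, both smaller than over all mice. The Saa1 and Saa2 differences between involution and lactation there were 3.24 each.

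The depth of the libraries is not known, since each mouse's TPM values sum to 1000000, and between 11209 and 11797 entries reached 1 TPM per mouse. Over all 16230 entries with a mean of at least 0.1 TPM, limma-trend passed 1494 entries between lactation and nulliparous mice, 3703 between involution and lactation, and 707 between involution and nulliparous mice, at an adjusted p under 0.05. The share of passed entries that were higher was 29.5%, 79.3% and 79.1%, and with median-ratio scaling of the mice 45.5%, 52.0% and 42.7%. The 2 ranges of animal numbers differed in 4149 entries, 64.4% of them higher at the high numbers (47.3% with that scaling). The median difference of all entries was 0.099 on the log2 scale between lactation and involution, and it was not subtracted from the differences given below.

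The cytokines that induce Saa genes were scarce. Il6 was listed at 0 in all 7 nulliparous mice and reached at most 0.10 TPM in any mouse, below the level that was tested, as were Il11, Lif, Osm, Il22 and Il10. Of the 5 tested cytokines, 4 rose between lactation day 10 and involution day 6, where 18.1% of all entries rose and 4.73% fell; with mice numbered 200 and above alone, 1 did. Il1b, encoding interleukin-1 beta, ran from 1.37 to 3.79 TPM in nulliparous, 0.95 to 2.05 in lactating and 2.37 to 5.77 in involution mice. It rose from lactation to involution by 1.01 (SE 0.18, adjusted p = 0.00045, limma). Its fall at lactation was -0.58 (adjusted p = 0.036), a call lost when any 1 of 8 mice was left out, with an adjusted p of 0.090 without LAC_102. NUL_1, with the highest Saa1, had the lowest Il1b of the nulliparous mice, 1.37 TPM, and NUL_221 had 2.44 TPM. Il1a (0.52), Ctf1 (0.62), a cytokine of the interleukin-6 family, and Tnf (0.19) rose too between lactation and involution, with Tnf between 0.03 and 0.30 TPM in every mouse. Among mice numbered 200 and above these 3 did not pass (adjusted p = 0.062, 0.065 and 0.12). Between lactation and nulliparous mice Il1b and Ctf1 (-0.46, adjusted p = 0.039, and up to 0.096 when 1 of 8 mice was left out) fell, of 5 tested, and with mice numbered 200 and above alone neither passed, beside 6.49% of all entries that fell and 2.72% that rose. Between involution and nulliparous mice 0 of the 5 passed by limma and 1 was under 0.05 unadjusted, beside 3.44% of entries upward and 0.912% downward.

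The receptor for interleukin-1 also rose from lactation to involution. Il1r1, its signalling chain, had means of 6.33 ± 1.36 TPM in nulliparous, 4.81 ± 1.49 in lactating and 9.11 ± 1.89 in involution mice, and rose by 0.81 from lactation to involution (adjusted p = 0.0013). Its partner chain Il1rap fell by 0.57 at lactation (adjusted p = 0.00019) and rose by 0.55 at involution (adjusted p = 0.00011). Of 22 tested receptors and signal transducers, 7 rose and 0 fell from lactation to involution, and 2 fell at lactation, Il1rap and the tumour necrosis factor receptor Tnfrsf1b (-0.47, adjusted p = 0.015, and 0.081 among mice numbered 200 and above). With median-ratio scaling the 7 became 3, and 1 fell. The interleukin-6 side gave no call in the 3 contrasts over all mice: Il6ra, the binding chain, averaged 5.98, 9.52 and 8.21 TPM over the stages, Il6st, the shared gp130 chain, 22.9, 22.1 and 25.8, and Stat3 30.8, 27.8 and 34.1. Socs3, the feedback inhibitor that STAT3 induces, averaged 3.60, 2.46 and 3.02 TPM and did not pass either. Il6ra was 0.55 higher at lactation than in nulliparous mice (adjusted p = 0.065) and passed with median-ratio scaling (0.040), with the number range in the fit (0.039) and without LAC_133 or LAC_200 (0.042 and 0.041). Between lactation and involution Stat3 passed with the 2 stages fitted alone (adjusted p = 0.046) and among mice numbered 200 and above (0.032), where it also passed as a fall at lactation (-0.47, adjusted p = 0.029). Myd88, the adaptor below the interleukin-1 and Toll-like receptors, was 0.49 higher at involution than in nulliparous mice (adjusted p = 0.023), a call lost among mice numbered 200 and above (adjusted p = 0.28), with the number range in the fit (0.078), with median-ratio scaling (0.072), without both NUL_1 and NUL_221 (0.081) and without any 1 of NUL_1 and NUL_13 or ID6_209 and ID6_216 (up to 0.057).

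Of 17 factors known to act at Saa promoters, 8 rose and 0 fell from lactation to involution (3 and 1 with median-ratio scaling, and 5 without any 1 of LAC_36, LAC_133 and LAC_200 or ID6_209 and ID6_232). The 8 were the NF-kB genes Relb, Nfkb1, Nfkb2 and Rela, the I-kappa-B gene Bcl3, Cebpd, Maz and the glucocorticoid receptor Nr3c1, while Rel (0.10, adjusted p = 0.52) and Nfkbiz (0.12, adjusted p = 0.61) of the NF-kB and I-kappa-B families did not pass. Between lactation and nulliparous mice 0 of the 17 passed by limma, and 3 were under 0.05 unadjusted. Bcl3, an I-kappa-B protein that works with NF-kB p50 and p52, had the largest rise, 1.11 (SE 0.28, adjusted p = 0.0079), from 4.56 to 13.23 TPM in lactating mice to 17.87 to 26.11 at involution. It also differed by animal number, 1.01 higher at 200 and above (adjusted p = 0.00045); 16.5% of all entries were higher and 9.11% lower there. Relb, a subunit of the alternative pathway, went from 0.59 to 1.03 TPM up to 1.64 to 1.90 TPM, a rise of 0.65 (adjusted p = 0.00015). Cebpd, the C/EBP factor induced in the acute phase, rose by 0.35 (adjusted p = 0.030), an adjusted p that became 0.15 with median-ratio scaling and up to 0.071 when 1 of LAC_36, LAC_200 and LAC_213 or ID6_209 and ID6_216 was left out. Cebpb, the most abundant inducible C/EBP factor here, averaged 72.2, 95.0 and 64.9 TPM and did not pass (-0.48 between lactation and involution, adjusted p = 0.086). It passed as a fall with median-ratio scaling (0.030) or without LAC_213 (adjusted p = 0.0048). Nfkbia, the inhibitor that NF-kB itself induces, was 0.22 higher at involution than at lactation (adjusted p = 0.34), and it was 0.42 lower at the high animal numbers (adjusted p = 0.011); with mice numbered 200 and above alone it rose by 0.44 from lactation to involution (adjusted p = 0.048).

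Glucocorticoids act with cytokines on Saa genes, and their response genes did not move together. Of 9 tested, Sgk1 rose from lactation to involution (1.08, adjusted p = 0.015; 0.093 among mice numbered 200 and above) and the metallothioneins Mt1 (-2.33, adjusted p = 0.00042) and Mt2 (-2.52, adjusted p = 0.0086; 0.25 among mice numbered 200 and above) fell. Mt1 had risen at lactation by 1.34 (adjusted p = 0.037), a call lost among mice numbered 200 and above (adjusted p = 0.68) and without any 1 of 9 mice (up to 0.086). Mt1 and Mt2 are acute phase genes as well, and from lactation to involution they moved opposite to Saa1, Saa2 and Saa3. The Mt2 rise at lactation did not pass (1.82, adjusted p = 0.073, limma). Among nulliparous mice Mt1 and Mt2 were highest in NUL_221 (1560 and 863 TPM), 1 of the mice with high Saa1 and Saa2.

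Other acute phase genes of the hepatocyte rose with the Saa genes in part. From lactation to involution 14 of 26 rose and 3 fell, with a list median of 0.55 against 0.099 over all entries; with median-ratio scaling 9 rose and 3 fell. Hamp, the iron hormone hepcidin, moved most. It fell at lactation by 2.67 on the log2 scale (adjusted p = 0.0038), from 3154 to 10404 TPM in nulliparous mice to 123 to 3488 TPM, and rose by 3.0 at involution (adjusted p = 0.00075). Hamp also differed by animal number, 1.59 higher at 200 and above (adjusted p = 0.026, limma, and 0.076 without NUL_1 and NUL_221). That is the range of every involution mouse, and the smallest rise in an alternative run was 1.84, which still passed. Haptoglobin, Hp, which binds free haemoglobin, rose by 1.33 (SE 0.27, adjusted p = 0.0014), from a mean of 1390 ± 312 TPM to 3597 ± 1198 TPM. It too was higher at animal numbers of 200 and above, by 0.75 (adjusted p = 0.0029, limma). Its smallest rise in an alternative run was 0.95, and it passed in every one. Hemopexin, Hpx, which binds haem, rose by 1.17 (adjusted p = 0.00032) and was still 0.85 above the nulliparous level (adjusted p = 0.020; 0.19 among mice numbered 200 and above). Orm2, an orosomucoid, rose by 1.44 (adjusted p = 0.0017), while its more abundant neighbour Orm1, a close paralog with which it may share reads, averaged 1111, 1321 and 1310 TPM and did not pass in any stage contrast. The fibrinogen genes Fga (0.60, adjusted p = 0.0067), Fgb (0.52, adjusted p = 0.023) and Fgg (0.56, adjusted p = 0.013) rose too; Fgb and Fgg did not pass among mice numbered 200 and above (0.20 and 0.12), and leaving out 1 of LAC_36 and LAC_102 or ID6_209 and ID6_216 ended the Fgb call (up to 0.055).

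Several acute phase genes did not rise. Crp, a minor acute phase protein in mice, fell by 0.54 from lactation to involution (adjusted p = 0.0052; 0.070 among mice numbered 200 and above). Apcs, encoding serum amyloid P, the mouse's classical pentraxin, averaged 733, 669 and 920 TPM and did not pass between stages (adjusted p = 0.093 between lactation and involution). Lcn2, lipocalin 2, which binds bacterial siderophores, averaged 21.5 ± 23.0, 9.95 ± 7.33 and 19.8 ± 10.2 TPM and did not pass over all mice; among mice numbered 200 and above it rose by 2.12 from lactation to involution (adjusted p = 0.019). Between lactation and nulliparous mice, 1 acute phase gene rose (Mt1) and 3 fell, Hamp, Steap4 and Lrg1; the Lrg1 fall of 1.12 (adjusted p = 0.023) had an adjusted p of 0.051 without LAC_200. Its rise of 0.88 at involution (adjusted p = 0.048) was lost without any 1 of 13 mice (up to 0.11, without ID6_216). Of 10 negative acute phase genes, which an acute phase lowers, 3 rose and 1 fell from lactation to involution, or 1 and 1 without any 1 of LAC_36 and LAC_102 or ID6_209. The one that fell was albumin, Alb (-0.68, adjusted p = 0.0043, and 0.19 with no filter on low values), which had risen by 0.86 at lactation; transthyretin, Ttr, rose by 0.72 (adjusted p = 0.032), and 0.13 with an adjusted p of 0.52 among mice numbered 200 and above. Ttr also lost its call without any 1 of 7 mice (adjusted p up to 0.085).

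The 2 nulliparous mice with high Saa1 and Saa2 differed from each other in other genes. NUL_221 had the highest level of the nulliparous mice for Hp (4346 TPM, the others 1322 to 3021), for Lrg1 (599 TPM, the others 125 to 232.3), for Lcn2 (72.1 TPM, the others 9.10 to 24.3) and for Orm2 (91.6 TPM, the others 28.7 to 52.1). It also had the highest Lbp, the lipopolysaccharide-binding protein, at 130 TPM, and the highest Fgb at 2058 TPM. NUL_1 was next for Lcn2 (24.3 TPM) and for Orm2 (52.1 TPM). Its Hp of 1814 TPM, Fgb of 1145 TPM and Lbp of 59.5 TPM lay inside the range of the mice with low Saa1. Those mice are of both ranges of animal number, and Hp was higher at the high numbers. Of the 3 nulliparous mice numbered under 200, NUL_1 had the highest Hp (1489 TPM in NUL_4, 1322 in NUL_13). Its Lrg1 (203 TPM against 139 and 154) and Lbp (against 57.0 and 52.8) were also highest of these 3. Its Fgb lay between theirs (1163 and 1025 TPM). The Hamp of NUL_1, 3154 TPM, was the lowest of the stage. The summed level of 7 adipocyte genes also set NUL_1 apart, at 39.5 TPM against 11.5 to 18.2 in the other nulliparous mice (17.0 in NUL_221). That sum was led by Fabp4 (17.7 TPM) and by Cfd, the adipocyte protease adipsin, at 16.3 TPM against 0.06 to 2.37. Not every gene of the list was high, and Cidec at 1.44 TPM lay inside the range of the others, 0.59 to 1.75. ID6_201, the involution mouse with the highest Saa1 and Saa2, likewise had the highest adipocyte sum of its stage, 45.8 TPM against 13.4 to 27.3. ID6_209, next at 27.3 TPM, had a middle Saa1 of 145.51 TPM. The part of adipocyte RNA in these Saa levels was not tested. At involution the mouse with the highest Orm2, Hp and Lcn2 was ID6_216 (219, 5528 and 38.2 TPM), which had the lowest Saa3 of its stage and a middle Saa1.

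Receptors and partners of the Saa proteins mostly rose from lactation to involution, 8 of 12 upward and 1 downward. Of all entries, 18.1% rose and 4.73% fell in this contrast. The list median was 0.46 against 0.099 over all entries, and 0.35 against 0.0015 with median-ratio scaling. Tlr2 (0.67, adjusted p = 5.7e-05) and Tlr4 (0.51, adjusted p = 0.00015), the Toll-like receptors, rose, and both had fallen at lactation (-0.38 and -0.30). Both were low, Tlr2 between 0.35 and 1.59 TPM and Tlr4 between 0.29 and 1.25 TPM in every mouse. Fpr1 (0.78, adjusted p = 0.00027) and Fpr2 (0.57, adjusted p = 0.0055), formyl peptide receptors that draw leukocytes along Saa, rose, with Fpr2 between 0.61 and 2.85 TPM in every mouse. Cd14, the co-receptor for lipopolysaccharide, rose by 0.70 (adjusted p = 0.0017) and was 0.70 above nulliparous mice as well. Scarb1, the hepatic HDL receptor, which also takes up Saa, rose by 0.42 (adjusted p = 0.020), an adjusted p that became 0.11 with median-ratio scaling and 0.051 without ID6_232. The gene that fell was Cd36, a scavenger receptor (-1.17, adjusted p = 0.047), a call that leaving out NUL_220 or any 1 of 9 lactating or involution mice ended (adjusted p up to 0.12). Cd36 also differed by animal number, by -1.66 at 200 and above (adjusted p = 2.0e-06, limma), the range of every involution mouse. Lactating mice of that range had 35.19, 41.26 and 46.80 TPM, against 27.17 to 37.67 TPM at involution. The smallest difference in an alternative run was -0.34.

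On the HDL side, Apoa1, encoding the apolipoprotein that Saa displaces, averaged 8319, 9219 and 10297 TPM and did not pass in any contrast between stages. Of 14 HDL genes, 6 rose and 2 fell from lactation to involution (3 and 2 with median-ratio scaling, 4 and 1 without ID6_232). Apoe (0.79, adjusted p = 8.7e-05) and the lipid exporter Abcg1 (0.81, adjusted p = 3.1e-05) rose most. Pltp, the phospholipid transfer protein, ran opposite to the Saa genes, 1.71 higher at lactation than in nulliparous mice (adjusted p = 6.2e-05) and 1.34 lower at involution than at lactation (adjusted p = 0.00017). Hepatic lipase, Lipc, fell at lactation (-0.48, adjusted p = 0.0021; 0.095 among mice numbered 200 and above). Of 6 proteases that cut Saa, 3 rose from lactation to involution and 0 fell, led by cathepsin S, Ctss (1.33, adjusted p = 3.0e-06), and cathepsin B, Ctsb (0.43, adjusted p = 5.2e-05).

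**Figure D4:**
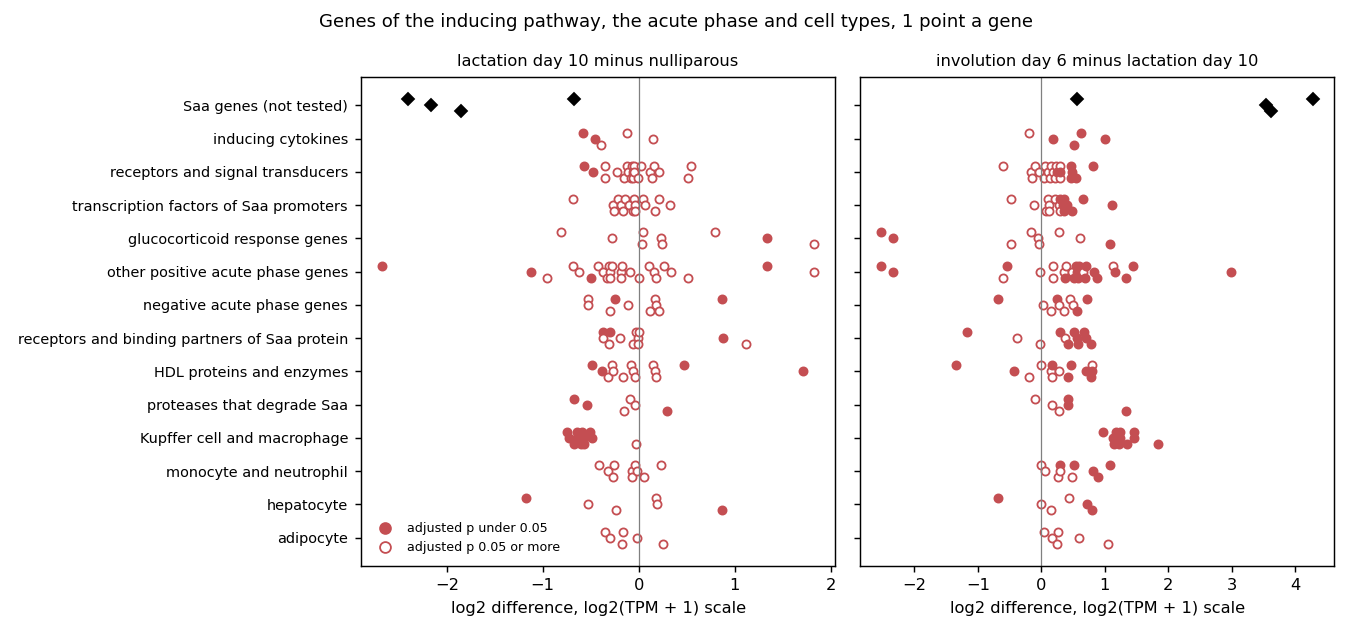
Log2 differences on the log2(TPM + 1) scale between lactation and nulliparous mice (left) and between involution and lactation (right), 1 point a gene in rows by list; filled red points passed at an adjusted p under 0.05, open points did not, and the black diamonds are the Saa genes, which carry no test. Of the 12 macrophage genes, 11 fell at lactation and 12 rose at involution, in a tight group, while the acute phase list spreads to both sides.

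The markers of Kupffer cells, the resident macrophages of the liver, moved together, in the directions in which Saa3 differed. Of 12 Kupffer cell and macrophage genes, 0 rose and 11 fell at lactation, 12 rose from lactation to involution, and 12 stood higher at involution than in nulliparous mice. Their summed level was 351 to 635 TPM in nulliparous, 235 to 434 in lactating and 731 to 963 in involution mice, and none of the 12 was at 0 in any stage. Cd5l, a macrophage secreted protein, rose by 1.84 from lactation to involution (adjusted p = 6.5e-06), Lyz2, lysozyme, by 1.46 (adjusted p = 1.4e-06), and Clec4f, a Kupffer cell lectin, by 1.23 (adjusted p = 8.1e-05). The 12 rises between lactation and involution passed in every alternative run. The count above nulliparous mice was 4 among mice numbered 200 and above, 8 with median-ratio scaling or with the number range in the fit, 6 without NUL_1 and NUL_221 and 8 to 12 when 1 mouse was left out; the 11 falls became 6 with the 2 stages fitted alone and 7 without any 1 of NUL_220, NUL_226 and NUL_227 or LAC_36 and LAC_102. By animal number 10 of the 12 were higher at 200 and above in the nulliparous and lactating mice, and 0 were lower.

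Saa3 differed by more than the marker sum. It came to 1.44% to 5.25% of the summed Kupffer level in nulliparous mice, 0.370% to 2.49% in lactating mice and 5.69% to 15.4% at involution. By animal number it was 4.07% to 5.25% at the high and 1.44% to 2.19% at the low numbers among nulliparous mice. What share of the Saa3 difference goes with the macrophage markers was not tested.

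**Figure D5:**
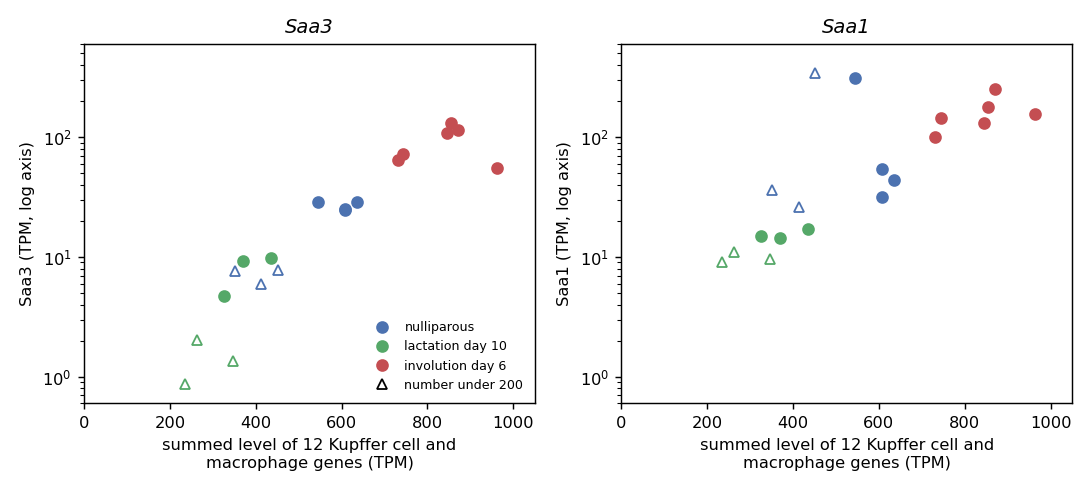
Saa3 (left) and Saa1 (right) in TPM on a log axis against the summed TPM of 12 Kupffer cell and macrophage genes, 1 point a mouse, coloured by stage; open triangles are animal numbers under 200. Across stages Saa3 is higher where the marker sum is higher, but among the involution mice ID6_216 has the highest sum and the lowest Saa3. NUL_1 and NUL_221 lie far above the other nulliparous mice for Saa1 at marker sums of 451 and 544 TPM.

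The genes most like each member over the 19 mice, by Pearson's r of log2 levels among the 11601 genes averaging 1 TPM or more, were shared in part by Saa1 and Saa2, with 3 genes in both lists of 5, and differed for Saa3 and Saa4. For Saa3 they were Vsig4, a complement receptor of Kupffer cells (r 0.967, and 0.832 within stages), Ppt1, a lysosomal thioesterase (0.966), Cd53, a leukocyte tetraspanin (0.964), Ctss (0.963) and Lyn, a kinase of blood cells (0.961). Vsig4 is one of the 12 macrophage markers. For Saa1 they were Ptpn18 (0.903), Cnpy2 (0.886), Pkm, a pyruvate kinase (0.884), Sf3b6 and Rps25, and for Saa2 Pkm (0.913), H2-DMb2, Ptpn18, Cnpy2 and Lsm6. Their r within stages was 0.507 to 0.741, below the 0.954 that Saa1 and Saa2 had with each other. Saa4 was most like Msrb1 (0.889), 2410015M20Rik, the glutathione peroxidase Gpx1 (0.886), Rtn4 and Necab1. Most of these values carry the difference between stages, since they were computed over all 3.

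For markers of other cell types the counts between lactation and involution stand beside the 18.1% of all entries that rose. Of 10 tested monocyte and neutrophil genes, 5 rose from lactation to involution and 0 fell, with a summed level of 5.14 to 22.8 TPM over all mice, and the neutrophil genes S100a8 (0.90, and an adjusted p of 0.071 among mice numbered 200 and above) and S100a9 (1.09) were among them; Ly6g and Cxcr2 stayed too low to test. Of 7 lymphocyte genes 6 rose, of 5 endothelial genes 3 and of 5 stellate cell genes 1. Of 6 adipocyte genes 0 passed by limma in any contrast between stages, with 1 under 0.05 unadjusted at lactation and 1 at involution against lactation, and with Adipoq, adiponectin, at 0.02 to 2.95 TPM; fat cells are a known source of Saa3. Of 4 cholangiocyte genes 0 passed and 0 were under 0.05 unadjusted in these contrasts. Of 6 pancreas acinar genes 1, Cela1, fell at lactation and rose at involution. The other 5 differed in the opposite direction in both contrasts and did not pass. Among them Ctrb1 was at 15.96 TPM in LAC_133 and 5.30 TPM in LAC_36, against at most 0.96 TPM in any other mouse. The 6 hepatocyte markers summed to 60931 to 149939 TPM over the 19 mice, with 2 higher and 1 lower at involution than at lactation.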

How the data were processed

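The authors sequenced poly(A) RNA of flash frozen liver with paired 150-base reads, aligned it to GRCm38 (the aligner is not given in the sources used here) and quantified genes with RSEM 1.3.1; the deposited TPM values were used as given. RSEM shares reads that fit several genes among them, which touches Saa1 and Saa2. TPM keep no depth, so precision is known only from the spread between mice. Among 171 pairs of mice 0 were identical. Each sample is 1 animal.

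Log2(TPM + 1) of the 16230 entries with a mean of at least 0.1 TPM was fitted with limma-trend (3.58.1 in R 4.3.3), one mean per stage, all 19 mice, Benjamini-Hochberg adjustment, and a gene passed at an adjusted p under 0.05. A second fit of the 13 nulliparous and lactating mice compared animal numbers of 200 and above with lower ones. On simulated data for the lactation contrast, 195 of 200 genes changed by 1.5 on the log2 scale passed, and 12 unchanged genes. Members and gene lists were chosen with earlier results of these data known. Named were the members, 20 pathway genes, the 2 highest and 2 lowest passed genes of each pathway list and contrast, and the 5 genes most like each member; of these, genes that bear on the Saa genes were given values, and further list genes named were chosen after their values were seen. For 1 gene of the receptor list, which stays in the counts, no values are reported here. Alternatives were a pseudocount of 0.1, a mean of at least 1 TPM, no filter, median-ratio scaling, the 2 stages alone, leaving out every mouse in turn, the number range as a covariate, and only animals numbered from 200 up. The authors' DESeq2 test needs counts and was not repeated.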

Additional observations from a re-analysis of the deposited data

Results flagged for a closer look

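The 84 named genes were checked in each of the 3 stages for a mouse whose gap to its nearest neighbour took up most of the stage's range. This gave 15 such cases in 252 groups. Chance gives about 1 in 20 groups, a share near the one found, so nothing is read from the count. The groups are also not independent, since the genes of one mouse share a library. None of the 15 cases was for a Saa gene: among nulliparous mice, NUL_1 and NUL_221 both had high Saa1 and Saa2, so neither stood alone.

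NUL_221 stood out as high for 4 genes. Its gap took 0.759 of the range for Lcn2 (72.1 TPM, next 24.3), 0.773 for Lrg1 (599, next 232.3), 0.628 for Orm2 (91.6, next 52.1) and 0.674 for Mt2 (863, next 311). ID6_216 stood out as high for 4 genes, with a gap of 0.833 for Orm2 (219 TPM, next 79.8), 0.644 for Orm1 (1847, next 1309), 0.698 for Alb (82593, next 63540) and 0.626 for Trf, transferrin (30578, next 23507). The paralogs Orm1 and Orm2 may share reads.

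ID6_232 stood out as high for the HDL receptor Scarb1 (gap 0.651) and the lipid exporters Abca1 (0.641) and Abcg1 (0.633). In lactating mice, LAC_133 was high for Fpr2 (0.652), LAC_213 high for Myd88 (0.655) and low for Tnfrsf1b (0.65), and LAC_36 low for Cd14 (0.634). The lactation change was also compared between the 2 ranges of animal number. Of the 79 named genes with that test by limma, 0 passed, with a smallest adjusted p of 0.16; over all 16230 entries tested 18 passed, so nothing is read from the 0.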

How the results depend on the processing

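The 12 differences of the Saa genes kept their sign under every alternative run. Leaving out mice of the stage outside a contrast cannot change that contrast's difference. The 288 values below include such runs, which say nothing about stability. Of 288 recomputed values 285 moved by less than the spread between mice, and the 3 others were Saa3: 3.37 with the number range in the fit and 3.35 with mice numbered 200 and above, against 4.28, for involution against lactation, and 1.65 against 2.42 for involution against nulliparous mice with the number range in the fit. For Saa1 and Saa2 that spread is itself widened by NUL_1 and NUL_221 (nulliparous SD 1.55 and 1.64 on the log2 scale). Without both mice the lactation difference went from -2.40 to -1.51 for Saa1 and from -2.17 to -1.28 for Saa2. Both still counted as within the spread, so the count does not show that Saa1 and Saa2 are more stable than Saa3. With each mouse left out in turn, Saa1 ran from -2.63 to -2.02, 3.40 to 3.66 and 0.90 to 1.52 in the 3 contrasts, Saa2 from -2.50 to -1.76, 3.45 to 3.74 and 1.11 to 1.85, Saa3 from -2.11 to -1.60, 4.02 to 4.53 and 2.22 to 2.57, and Saa4 from -0.72 to -0.63, 0.51 to 0.60 and -0.17 to -0.07.

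The share of all tested genes that passed moved more. With no filter on low values, which brings in more genes to test, it was 4.66% in place of 9.21% between lactation and nulliparous mice, 12.5% in place of 22.8% between involution and lactation, 1.40% in place of 4.36% between involution and nulliparous mice and 13.8% in place of 25.6% by animal number. Between lactation and nulliparous mice it was 15.7% with the number range in the fit and 5.64% without NUL_1 and NUL_221 (6.52% to 9.72% with 1 mouse left out). Between involution and lactation it was 14.1% with mice numbered 200 and above (17.5% to 23.8%). Between involution and nulliparous mice it was 6.60% with a mean of at least 1 TPM, 2.44% with median-ratio scaling, 1.57% with the number range in the fit, 0.819% with mice numbered 200 and above and 1.12% without NUL_1 and NUL_221, and 1.51% (without NUL_13) to 9.16% (without NUL_227) with 1 mouse left out. By animal number it was 16.9% in nulliparous mice alone (20.6% to 24.1%). The causes were not tested, beyond the numbers of mice and genes. Of 1000 list counts recomputed, 186 moved by over 1.5 times, most of them counts of a few genes. No paired analysis was possible because each animal number occurs once. The unknown depth limits what can be said of genes near 0, such as Il6.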
